A study of Mus musculus with 6 samples.

Results

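Wnt pathway genes of a mouse neural stem cell line were measured after hypoxia and reoxygenation (H/R). The group was set by name: every gene of the deposited gene table whose symbol begins with Wnt, Fzd, Sfrp or Dkk and a number, plus 20 named receptors, relay proteins and effectors. It held 40 of the 14665 genes in the table, namely 8 Wnt ligands, 9 Frizzled receptors, 1 Sfrp gene, 2 Dkk genes and all 20 named genes.

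Wnt ligands are lipid-modified secreted proteins that bind Frizzled receptors together with the co-receptors Lrp5 and Lrp6. Without a ligand, a complex of Axin, Apc, casein kinase 1 alpha and Gsk3 marks β-catenin for destruction, and with a ligand Dishevelled holds that complex back, so that β-catenin reaches the nucleus and acts with TCF/LEF factors on target genes. In neural stem cells the pathway is known for its part in self-renewal, proliferation and neuronal differentiation.

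RNA was sequenced from C17.2 cells, an immortalised mouse neural stem cell line of WT genotype, in 3 H/R libraries and 3 control libraries. H/R cells were kept at 5% oxygen for 12 h and then at normal oxygen for 48 h, and the labels call the other libraries control. All libraries came from this one line. Whether replicates were cultured apart is not given in the labels, and the p-values below speak only of spread among libraries, which may be technical. Gene counts were 15639751 to 16830389 per H/R library and 7267809 to 8371882 per control library, so low genes were measured less precisely in control cells. Of 9 listed stem cell markers, 6 were in the table and had reads in every library. Nes rose (log2 fold change 0.76, edgeR adjusted p = 3.26e-05) and Sox9 fell (-2.19, adjusted p = 0.0142), though Sox9 overlapped between the groups, with 1.49 to 2.12 CPM in H/R cells and 1.29 to 14.97 CPM in control cells. Vim, Sox2, Msi1 and Hes1 did not pass the test, with log2 fold changes of 0.12, 0.09, -0.51 and 1.04. Of the 5 mesenchymal markers, 4 passed the filter on low counts, and the summed level of all 5 was 5610 to 6990 CPM in H/R cells and 5965 to 8601 CPM in control cells. Among them Pdgfrb fell (log2 fold change -0.36, edgeR adjusted p = 0.0358), while Col1a1, Col1a2 and Col3a1 did not pass the test. The summed neuronal markers reached 33.7 to 37.9 CPM in H/R cells and 73.2 to 81.1 CPM in control cells, nearly all of it Map2, which fell, while those of astrocytes, microglia and endothelial cells stayed under 3 CPM in every library. The part of these markers in the results below was not tested, and in bulk RNA fewer cells of a type and less RNA per cell cannot be told apart.

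CPM gives counts relative to the size of each library, corrected with TMM factors, and fold changes are H/R over control from edgeR's quasi-likelihood fit to all 11104 genes that passed a filter on low counts. Adjusted p is that test's p after the Benjamini-Hochberg adjustment over those genes, with 0.05 as the threshold. Of the 40 genes, 31 were tested and 9 were too low to test. In all, 6 of 31 (19.4%) were higher in H/R cells, where 18.8% of all tested genes were, and 1 of 31 (3.23%) was lower, where 19.0% of all tested genes were. The higher genes were Axin2, Fzd3, Fzd8, Fzd2, Wnt9a and Fzd7, and the lower gene was Tcf7l2. The median log2 fold change of the 31 genes was 0.09, against 0.01 over all tested genes. All 3 H/R libraries lay above all 3 control libraries for 7 of the 31 genes (25.7% of all tested genes did so) and below them for 4 (24.0% of all tested genes), and the groups overlapped for 20. Without scaling factors, where the median of all genes moved to 0.22, the split was 13 higher and 0 lower, and 33.4% of all tested genes were then higher and 11.5% lower. With DESeq2 it was 5 higher and 3 lower, where 2076 and 2271 of all 11104 tested genes were. With RLE factors it was 5 higher and 2 lower, where 2019 and 2174 of all 11104 tested genes were.

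**Figure D1:**
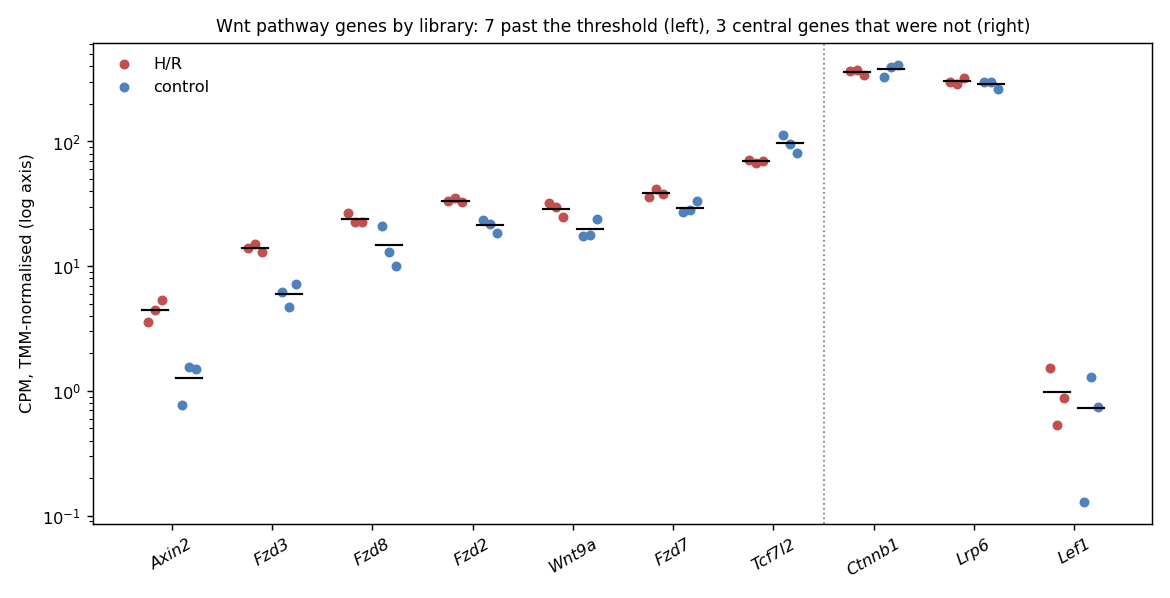
Level of 10 Wnt pathway genes in each library, in TMM-normalised CPM on a log axis, with 1 point per library, H/R libraries left of control libraries and a bar at each mean. The first 6 genes have all H/R points above all control points, Tcf7l2 has them below, and Ctnnb1, Lrp6 and Lef1 overlap.

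The largest change among the 31 was in Axin2, a scaffold of the destruction complex that is itself a textbook target of β-catenin and feeds back on the pathway. Axin2 (mm10 chr11:108920349-108950783, + strand) had 3.57, 4.46 and 5.36 CPM in H/R replicates 1, 2 and 3, and 0.77, 1.56 and 1.497 CPM in control replicates 1, 2 and 3. The lowest H/R library was more than 2 times the highest control library. The values rest on 65, 75 and 91 reads in H/R cells and 6, 12 and 10 reads in control cells. Axin2 was 3.49-fold higher in H/R cells (log2 fold change 1.80, SE 0.46, edgeR adjusted p = 0.0078), and the 95% interval of its log2 fold change ran from 0.81 to 2.80. With each library left out in turn the log2 fold change stayed between 1.54 and 1.98, with adjusted p from 0.0103 to 0.0403.

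At the other end of the pathway, Tcf7l2 was the only one of the 31 genes that passed the threshold as lower in the main fit. It encodes a DNA-binding partner of β-catenin, and by length-scaled level it was the most abundant of the 4 TCF/LEF genes, at 7.92 CPM per kb of exon in H/R cells and 11.01 CPM per kb in control cells. Tcf7l2 (mm10 chr19:55741820-55933654, + strand) had 71.5, 67.3 and 69.7 CPM in H/R replicates 1, 2 and 3, and 113, 94.95 and 81.6 CPM in the control replicates. The H/R libraries lay close together and all below the control libraries, which spread more widely. Its log2 fold change was -0.48 (SE 0.12, edgeR adjusted p = 0.0076), and with each library left out in turn it stayed between -0.59 and -0.35, past the threshold each time. Without scaling factors it was -0.26, with an adjusted p of 0.0993.

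The stretch of promoter just before the start is shown for these 2 genes. Axin2 had the largest rise, and Tcf7l2 was the only gene past the threshold as lower in the main fit. Both are RefSeq sequences of GRCm38.p6, the build of mm10, on the + strand. The TCF/LEF consensus letters CTTTGAT were searched on both strands in windows from 250 bases before to 50 bases after each RefSeq start. Neither window holds these letters, so nothing is in capitals.
Axin2, chr11:108920099-108920348: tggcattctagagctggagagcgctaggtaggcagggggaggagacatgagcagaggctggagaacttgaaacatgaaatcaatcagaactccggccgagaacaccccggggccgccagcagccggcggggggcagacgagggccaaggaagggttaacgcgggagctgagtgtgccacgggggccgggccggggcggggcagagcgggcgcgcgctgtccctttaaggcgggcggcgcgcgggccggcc
Tcf7l2, chr19:55741560-55741809: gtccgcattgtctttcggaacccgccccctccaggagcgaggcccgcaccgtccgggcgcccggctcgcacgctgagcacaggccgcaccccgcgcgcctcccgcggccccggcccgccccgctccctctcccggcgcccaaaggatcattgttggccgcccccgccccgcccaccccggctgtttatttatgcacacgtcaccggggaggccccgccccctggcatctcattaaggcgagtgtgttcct
The Axin2 stretch is 69.2% G or C and the Tcf7l2 stretch 72.8%. Among all 32851 windows, 3.73% hold the letters, and of the 25 pathway genes with a window only Wnt5b and Wnt11 do, both too low in these cells to be tested. The search says only whether these letters are in these windows.

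Among the ligands, the balance of Wnt RNA lay with Wnt9a in both groups. It had 32.2, 29.6 and 25.01 CPM in H/R replicates 1, 2 and 3, and 17.5, 17.8 and 23.9 CPM in the control replicates, so that the lowest H/R library lay just above the highest control library. Wnt9a rose (log2 fold change 0.56, SE 0.18, edgeR adjusted p = 0.0246). The call is not firm: the adjusted p was 0.111 without H/R replicate 1, 0.0773 without H/R replicate 2, 0.0536 without control replicate 1, 0.0927 without control replicate 2 and 0.0508 with H/R libraries thinned to the control depth, while the log2 fold change stayed between 0.47 and 0.77 under every alternative. Wnt5a, the best-known ligand of the β-catenin-independent branch, had 6.21 to 7.59 CPM in H/R cells and 5.46 to 9.67 CPM in control cells, with overlapping groups. Wnt4 had 2.67 to 4.24 CPM in H/R cells and 5.39 to 5.80 CPM in control cells, without overlap, but its log2 fold change of -0.58 (SE 0.35) did not pass the test (edgeR adjusted p = 0.217). Wnt7b stood at 1.07 to 2.24 CPM in H/R cells and 1.56 to 2.84 CPM in control cells, again overlapping.

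The other 4 ligands were near the limit of detection. Wnt10b had 4, 1 and 14 reads in H/R replicates 1, 2 and 3 and no read in any control library, and Wnt5b had 10, 0 and 2 reads in the H/R replicates and none in control cells. Wnt11 and Wnt2b had no read in H/R cells and 6 reads each in 1 control library, replicate 1 for Wnt11 and replicate 3 for Wnt2b. A count of 0 allows up to 0.178 CPM in the H/R libraries and up to 0.449 CPM in the control libraries (3 counts per library, for counting error only), so a low level of any of these was not detectable. For the secretion step, Wls, which carries lipid-modified Wnt proteins to the cell surface, had 13.5 to 14.2 CPM in H/R cells and 13.2 to 17.7 CPM in control cells. Porcn, the acyltransferase that puts the lipid on Wnt proteins, had 2.61 to 4.94 CPM in H/R cells and 1.35 to 5.80 CPM in control cells. Both overlapped between groups.

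Of the 11 tested genes for receptors and receptor turnover, 4 rose (36.4%, where 18.8% of all tested genes did). Fzd3, a receptor known from axon growth and planar cell polarity, had 14.1, 15.1 and 13.0 CPM in H/R replicates 1, 2 and 3, and 6.19, 4.68 and 7.18 CPM in the control replicates. Every H/R library was well above every control library, and the rise was 2.34-fold (log2 fold change 1.23, SE 0.24, edgeR adjusted p = 0.0013). Fzd2 had 33.2, 35.1 and 32.5 CPM in H/R cells and 23.3, 21.8 and 18.6 CPM in control cells. It rose 1.58-fold (log2 fold change 0.66, SE 0.15, edgeR adjusted p = 0.0036). Both kept their calls with each library left out and in every other alternative fit.

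The rises of Fzd8 and Fzd7 were less firm. Fzd8 had 26.8, 22.5 and 22.5 CPM in H/R replicates 1, 2 and 3, and 21.0, 13.0 and 10.0 CPM in the control replicates, with control replicate 1 close to the H/R libraries. Its log2 fold change was 0.70 (SE 0.23, edgeR adjusted p = 0.0315). The adjusted p was 0.118 without H/R replicate 1, 0.0573 without H/R replicate 2, 0.0676 without H/R replicate 3, 0.118 without control replicate 2 and 0.0916 without control replicate 3. Fzd7 had 35.9, 41.5 and 37.7 CPM in H/R cells and 27.3, 28.1 and 33.1 CPM in control cells. All H/R libraries lay above all control libraries. The log2 fold change of Fzd7 was 0.38 (SE 0.14, edgeR adjusted p = 0.0459), and its adjusted p was 0.0755 without H/R replicate 1, 0.183 without H/R replicate 2, 0.087 without H/R replicate 3, 0.102 without control replicate 1 and 0.132 without control replicate 2. DESeq2 gave Fzd7 an adjusted p of 0.0533. DESeq2 was among 5 alternative fits, apart from those with a library left out, in which Fzd7 lost its call.

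Fzd5 moved the other way without passing the test. It had 31.1, 38.0 and 25.2 CPM in H/R replicates 1, 2 and 3, and 44.7, 35.7 and 46.5 CPM in the control replicates, so that H/R replicate 2 overlapped the control libraries (log2 fold change -0.43, SE 0.17, edgeR adjusted p = 0.0615). It passed the threshold as lower in 4 alternative fits with no library left out, with an adjusted p of 0.044 in DESeq2. So it did in the quasi-likelihood test without H/R replicate 2 (0.0294) or without control replicate 2 (0.0412). Fzd1 had 24.8 to 28.6 CPM in H/R cells and 14.4 to 27.2 CPM in control cells, with an adjusted p of 0.141 in edgeR and 0.0111 without control replicate 1. Fzd4 and Fzd6 stayed under 3.3 CPM in every library, and Fzd9, at most 8 reads in a library, was not tested. The values of Fzd5 and Fzd1 were chosen for their place near the threshold after they had been seen.

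The Frizzled reads were also split by gene. The 9 Fzd genes summed to 172, 185 and 163 CPM in H/R replicates 1, 2 and 3, and to 151, 128 and 133 CPM in the control replicates. Fzd5 took 18.1%, 20.6% and 15.5% of the Fzd reads in H/R cells and 29.5%, 27.9% and 34.9% in control cells. Fzd3 took 8.20%, 8.17% and 7.99% in H/R cells and 4.09%, 3.65% and 5.39% in control cells. Fzd7 took 20.9% to 23.1% in H/R cells and 18.04% to 24.8% in control cells. The groups did not overlap for Fzd5, Fzd3 and Fzd2 and did for the other 6 genes. Lack of overlap was common in these data. In CPM, all H/R libraries lay above all control libraries for 25.7% of all tested genes and below them for 24.0%. The 95% Wilson interval of a share was at most 3.12 percentage points to either side. An exact permutation test of 3 against 3 libraries cannot go below a two-sided p of 0.1, which these 3 shares reached. Shares do not depend on the scaling of libraries, but they rest on the same reads as the fold changes and use no length correction. Per kb of exon, Fzd2, Fzd7, Fzd1 and Fzd5 had the 4 highest Fzd levels in H/R cells (9.18, 8.47, 6.502 and 4.55 CPM per kb) and also in control cells (5.80, 6.51, 4.90 and 6.12 CPM per kb). Fzd2 was the highest of the 4 in H/R cells and Fzd7 in control cells.

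**Figure D2:**
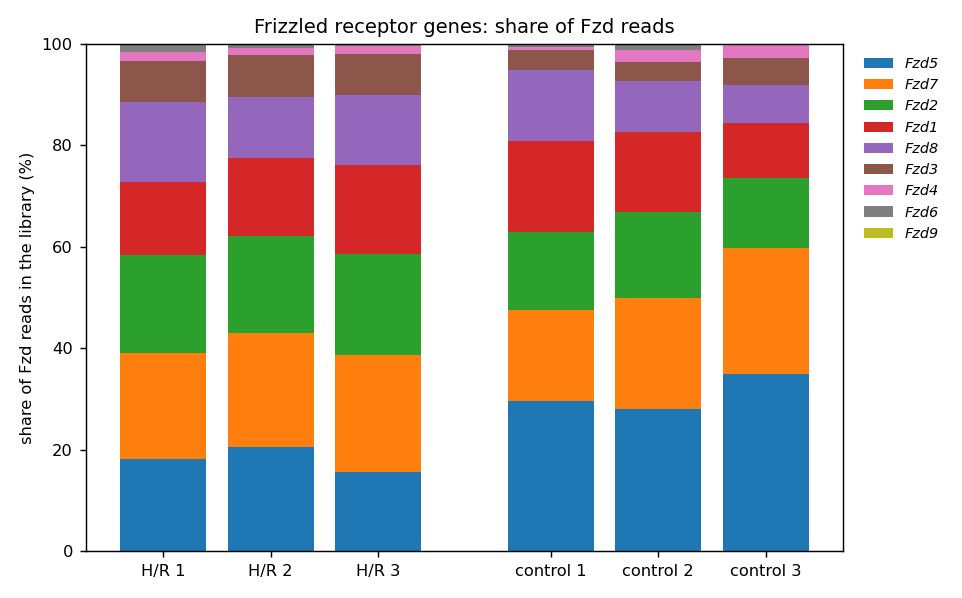
Share of all Fzd reads taken by each of the 9 Frizzled genes, in percent, with 1 bar per library and the H/R libraries left of the control libraries. Fzd5 takes 15.5% to 20.6% of the bar in H/R cells and 27.9% to 34.9% in control cells.

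The co-receptors and the ligases that remove receptors changed little. Lrp6, the main co-receptor, had 299.9, 289 and 325 CPM in H/R replicates 1, 2 and 3, and 299.7, 299 and 263 CPM in the control replicates, with overlapping groups (log2 fold change 0.09, SE 0.09, edgeR adjusted p = 0.481). The 95% interval of its log2 fold change, -0.11 to 0.28, lay inside a 1.5-fold change. Its close relative Lrp5 had 129 to 149.97 CPM in H/R cells and 122 to 129.5 CPM in control cells, and also overlapped. Znrf3, a ubiquitin ligase that removes Frizzled and Lrp6 from the surface, had 74.1 to 85.4 CPM in H/R cells and 82.1 to 96.9 CPM in control cells. Its partner Rnf43 had at most 8 reads in a library and was not tested. The secreted antagonists were all but silent, since Dkk2, Dkk3 and Sfrp4 had 1 read each over all 6 libraries.

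Apart from Axin2, none of the 10 relay and destruction complex genes passed the test. Ctnnb1, the gene of β-catenin, had 365, 371 and 338 CPM in H/R replicates 1, 2 and 3, and 327, 392 and 414 CPM in the control replicates, with overlapping groups. Its log2 fold change was -0.08 (SE 0.10, edgeR adjusted p = 0.574), with a 95% interval of -0.28 to 0.13, and it turned to 0.14 without scaling factors. RNA counts say nothing of the protein, whose stability the pathway controls. Ctnnb1 and Gsk3b had the highest levels per kb of exon of the 40 genes, at 69.0 and 66.4 CPM per kb in H/R cells and 72.7 and 76.5 CPM per kb in control cells.

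Gsk3b, the kinase that marks β-catenin, was just outside the threshold. It had 639, 657 and 662 CPM in H/R replicates 1, 2 and 3, and 768, 776 and 710.3 CPM in the control replicates, without overlap. Its log2 fold change was -0.20 (SE 0.08, edgeR adjusted p = 0.0502), it was -0.22 with an adjusted p of 0.0239 in DESeq2, and it was 0.01 without scaling factors. Without control replicate 1 its edgeR adjusted p was 0.0499 and without control replicate 3 it was 0.0202. Csnk1a1, which phosphorylates β-catenin first, had 371 to 372 CPM in H/R cells and 385 to 432 CPM in control cells, without overlap, and did not pass the test (log2 fold change -0.13, edgeR adjusted p = 0.205, turning to 0.08 without scaling factors). Apc, the large scaffold of the complex, had 282 to 304 CPM in H/R cells and 247 to 267 CPM in control cells, without overlap (log2 fold change 0.18, edgeR adjusted p = 0.0958). The values of Gsk3b, Csnk1a1 and Apc were singled out after they had been seen. Axin1, Dvl1, Dvl2, Dvl3 and Gsk3a overlapped between groups, and their log2 fold changes ran from -0.12 to 0.13. Dvl2 was the least even, with 18.9 to 23.5 CPM in H/R cells and 11.5 to 35.6 CPM in control cells.

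Of the nuclear factors other than Tcf7l2, Lef1 had 1.54, 0.53 and 0.88 CPM in H/R replicates 1, 2 and 3, and 0.13, 1.299 and 0.75 CPM in the control replicates. These values come from 28, 9 and 15 reads in H/R cells and 1, 10 and 5 reads in control cells and overlap fully (log2 fold change 0.45, SE 0.81, edgeR adjusted p = 0.698). Tcf7 had 2.12 to 4.84 CPM in H/R cells and 4.12 to 6.88 CPM in control cells, and Tcf7l1, often a repressor, had 17.2 to 25.8 CPM in H/R cells and 13.2 to 29.0 CPM in control cells. Both overlapped between groups.

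Across the 24 tested genes that did not pass, no estimate reached a 2-fold change. The 95% interval lay inside a 2-fold change for 17 of them and inside a 1.5-fold change for 12, and for the other 7 of the 24 a 2-fold change lay within it. These 7 genes, which include Lef1, Fzd4, Fzd6 and Porcn, were measured too loosely to say more. Within the same fit the 3 genes nearest the threshold on the far side were Gsk3b, Fzd5 and Apc, and the 3 nearest on the near side were Fzd7, Fzd8 and Wnt9a.

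**Figure D3:**
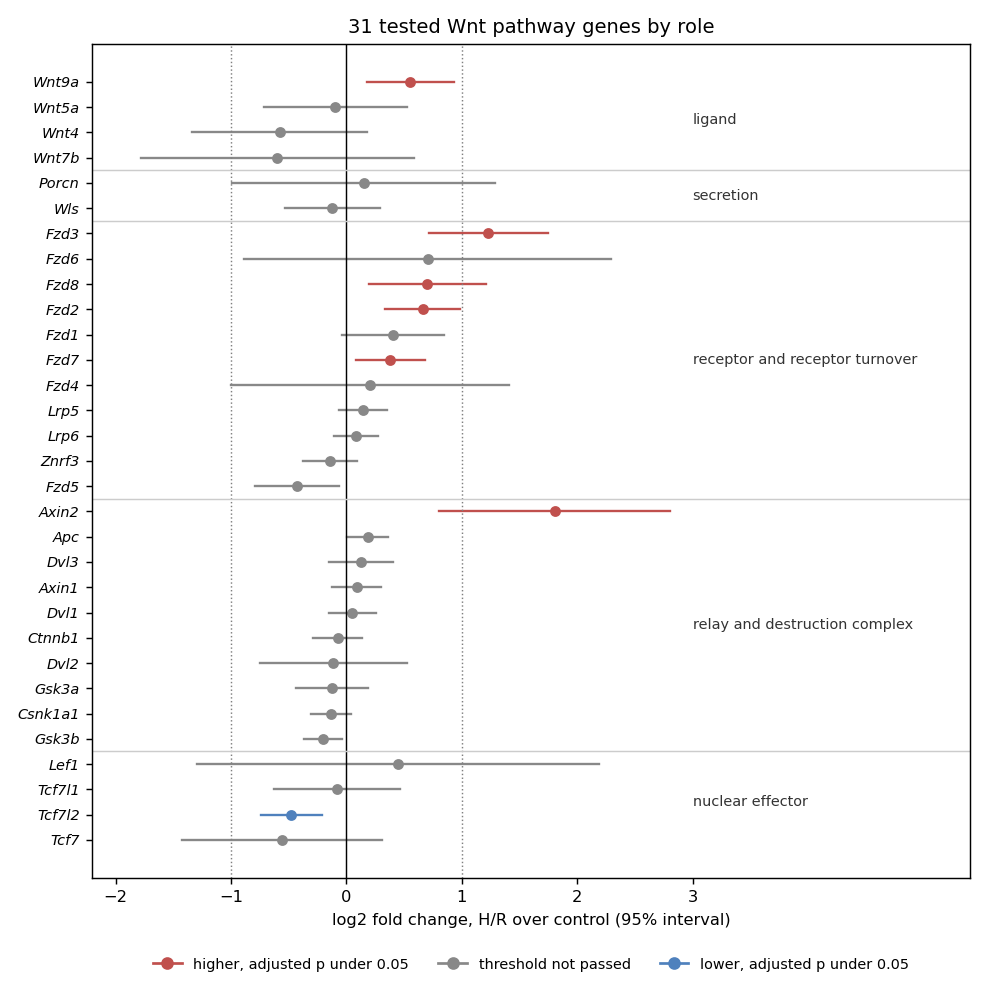
Log2 fold change, H/R over control, of the 31 tested Wnt pathway genes with its 95% interval, grouped by role, with dotted lines at a 2-fold change. Genes past the threshold are in red (higher in H/R, 6 genes) or blue (lower in H/R, 1 gene), and the intervals of Lef1 and Fzd6 are wide.

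Other genes of the pathway were taken from a list of 83 further components (co-receptor partners, planar cell polarity genes, catenins and modulators), of which 74 were in the table and 57 were tested. In H/R cells 13 rose (22.8%) and 9 fell (15.8%), shares near the 18.8% and 19.0% of all tested genes. Without scaling factors 26 rose and 3 fell, where 33.4% of all tested genes rose and 11.5% fell. Their median log2 fold change was 0.05. Kremen1, a receptor for Dkk proteins, had 137, 143 and 116 CPM in H/R replicates 1, 2 and 3, and 76.7, 76.1 and 77.2 CPM in the control replicates (log2 fold change 0.79, SE 0.11, edgeR adjusted p = 7.70e-05). Cby1, a β-catenin binding protein that also works at the base of cilia, averaged 39.7 ± 4.27 CPM in H/R cells and 14.7 ± 3.86 CPM in control cells (SD, n = 3 each). Csnk1g1 and Csnk1g2, membrane-bound kinases of Lrp6, rose 1.56-fold and 1.61-fold. For each of these 4 genes all H/R libraries were above all control libraries, as is likely for genes picked by smallest adjusted p.

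Among the components that fell, Nkd1, a Dishevelled-binding inhibitor and textbook feedback target, moved against Axin2. It had 1.15, 2.38 and 2.77 CPM in H/R replicates 1, 2 and 3, and 7.35, 5.72 and 6.29 CPM in the control replicates, from 21 to 47 reads in an H/R library and 42 to 57 in a control library (log2 fold change -1.62, SE 0.42, edgeR adjusted p = 0.0082). Invs, a ciliary protein that binds Dishevelled, averaged 39.0 ± 2.57 CPM in H/R cells and 71.5 ± 15.8 CPM in control cells. Prickle2, of the planar cell polarity branch, averaged 8.37 ± 0.20 CPM in H/R cells and 15.5 ± 0.69 CPM in control cells (SD, n = 3 each). Ctnna1, the α-catenin of cell junctions, averaged 358 ± 19.1 CPM in H/R cells and 474 ± 34.2 CPM in control cells, and its call was lost without scaling factors (adjusted p = 0.0806). In all 4 of these genes, also picked by smallest adjusted p, the groups did not overlap.

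Textbook targets of β-catenin with TCF/LEF factors moved in both directions. Of 56 listed, 41 were in the table and 33 were tested, with 8 higher and 8 lower in H/R cells (24.2% each, where 18.8% and 19.0% of all tested genes were) and a median log2 fold change of -0.27. Of the 33, 5 belong to the 31 genes above, Axin2 and Fzd7 among them, and without these 5 the counts were 6 higher and 8 lower of 28. Ccnd1, cyclin D1, had 312, 321 and 341 CPM in H/R replicates 1, 2 and 3, and 150.2, 175 and 182 CPM in the control replicates (log2 fold change 0.94, SE 0.09, edgeR adjusted p = 7.84e-06). Birc5, the mitotic protein survivin, averaged 42.1 ± 4.87 CPM in H/R cells and 14.4 ± 0.40 CPM in control cells. Cd44, a hyaluronan receptor, averaged 359 ± 3.68 CPM in H/R cells and 214 ± 24.6 CPM in control cells, and Gja1, connexin 43, averaged 213 ± 11.6 CPM in H/R cells and 129.7 ± 13.96 CPM in control cells (SD, n = 3 each).

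Myc, the growth-promoting transcription factor, went the other way from Ccnd1. It had 15.5, 14.9 and 14.3 CPM in H/R replicates 1, 2 and 3, and 35.2, 40.5 and 44.5 CPM in the control replicates (log2 fold change -1.43, SE 0.15, edgeR adjusted p = 1.20e-05). Vegfa, the vascular growth factor, averaged 121 ± 5.83 CPM in H/R cells and 256 ± 27.7 CPM in control cells. The matricellular genes Cyr61 and Wisp1 also fell, Cyr61 to 174 ± 21.7 CPM in H/R cells, against 338 ± 64.5 CPM in control cells, and Wisp1 to 308 ± 12.9 CPM in H/R cells, against 442 ± 24.3 CPM in control cells (SD, n = 3 each). For these 8 named targets the groups did not overlap. They were picked by smallest adjusted p, which makes this likely, so it adds no separate support. Of all tested genes, 25.7% had all H/R libraries above all control libraries and 24.0% had them below. Many of the listed targets answer to other signals as well, and their dependence on the Wnt pathway in these cells was not tested.

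**Figure D4:**
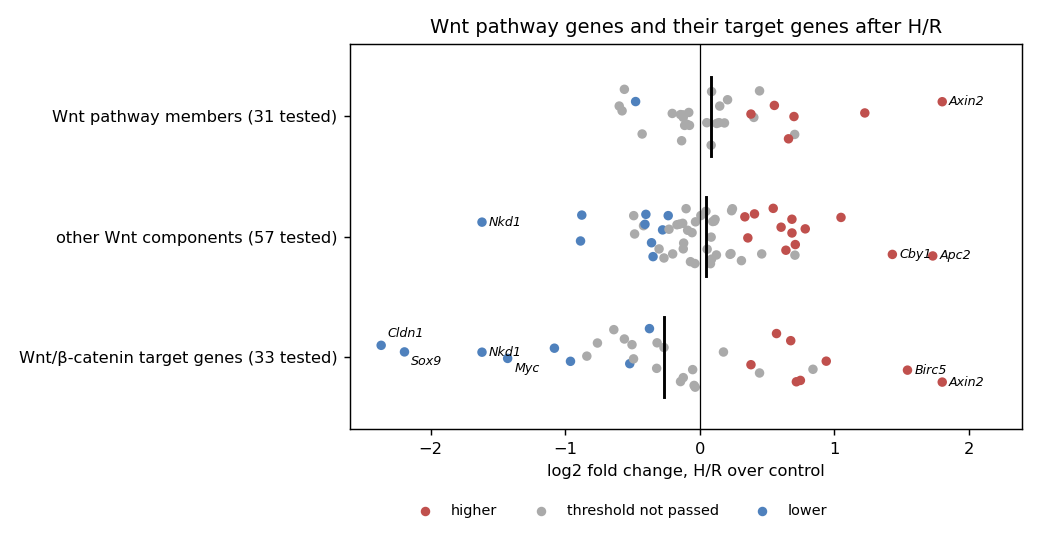
Log2 fold change, H/R over control, with 1 point per tested gene, for the 31 Wnt pathway genes, 57 other components and 33 textbook target genes, with a black bar at each median. Red points passed the threshold as higher and blue points as lower in H/R. Axin2 is the highest point at 1.80, the target gene Cldn1 the lowest at -2.37, and Nkd1 lies at -1.62.

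The deposited lncRNA table adds another readout at the same loci, with 43 transcripts assigned to 21 of the 40 genes, 33 of them sense and 10 antisense or bidirectional. Most of the sense transcripts overlap exons of their gene and can share its reads, so they are not an independent readout. Only 12 of the 43 transcripts were deep enough to test, and 0 passed the edgeR test (1 at an unadjusted p under 0.05), where 4.93% of all 6779 tested lncRNAs passed in either direction. The closest was BC031361, a natural antisense transcript at Gsk3b (mm10 chr16:38085063-38089260, − strand), with 180, 246 and 209 reads in H/R replicates 1, 2 and 3, and 66, 85 and 52 reads in the control replicates. Its log2 fold change was 0.67 (SE 0.25, edgeR adjusted p = 0.148). The strand setting of the counting is not given in the sources used here, so reads of Gsk3b and of its antisense transcript cannot be told apart for certain where they overlap.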

How the data were processed

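RNA of C17.2 cells was sequenced after removal of ribosomal RNA, from 3 H/R and 3 control libraries. Per the submitters' processing notes and methods, the authors used cutadapt 1.9.3 for trimming, HISAT2 2.0.4 for alignment to mm10 and HTSeq 0.9.1 for counting. The deposited values used are raw counts per gene, lncRNA transcript and circRNA back-splice junction (aligned with STAR 2.5.1b). The strand setting and the annotation release are not given in the sources used here. A further 18 columns with other values of the samples were left out.

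The gene and lncRNA tables were each fitted whole in R 4.3.3 with edgeR 4.0.16 (filterByExpr, TMM, two-sided quasi-likelihood test between H/R and control libraries without covariates, Benjamini-Hochberg adjustment over all features tested). All 40 genes were found in GENCODE vM21, which gave coordinates and exon lengths. Genes past the threshold and Ctnnb1, Lrp6, Axin2, Lef1 and Tcf7l2 are given by library, and from each list up to 4 genes per direction with the smallest adjusted p. The genes, lists and tests were chosen with earlier results of these data known. Alternatives were DESeq2 1.42.0, RLE or no scaling factors, the exact test, other filters and thresholds, a replicate block, thinning and leaving out each library. No library duplicated another. Reads carry no molecular identifiers, so intervals on shares and floors cover counting error only.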

Additional observations from a re-analysis of the deposited data

Results flagged for a closer look

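A circular RNA of Lrp6 stood out among the circRNAs of the pathway genes, which the comparisons above do not use. Its back-splice joins the ends of exons 4 to 7 of Lrp6 (mm10 chr6:134506196-134513419, − strand) and had 2, 5 and 6 junction reads in H/R replicates 1, 2 and 3, 13 in all, and 0 reads in each control replicate. Junction reads over all circRNAs were 2938 to 3335 in the H/R libraries and 1386 to 1846 in the control libraries. Against a floor of 3 counts over the control group, its share of junction reads was 2.3-fold higher in H/R cells. This ratio puts no counting error on the 13 H/R reads, so it is not a lower limit. Of 11 circRNAs from 5 of the pathway genes this one alone had reads in all H/R libraries and no control library, and it was singled out after its values had been seen. How many of all 2805 circRNAs had this pattern was not counted. Control libraries also held fewer junction reads, so the pattern cannot be read as particular to the pathway genes. The linear Lrp6 counts overlapped between the groups.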

How the results depend on the processing

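The calls of Axin2, Fzd2 and Fzd3 held in every alternative fit, that of Tcf7l2 in all but the one without scaling factors, and those of 15 of the 16 named list genes in all. For the Wnt pathway genes, 6 higher and 1 lower became 13 and 0 without scaling factors, 3 and 1 at an adjusted p under 0.01, and 2 and 0 at the study's thresholds (unadjusted p under 0.05, 2-fold). The lower count was 3 with DESeq2, 2 with RLE factors, 2 with the exact test, 2 without a filter and 3 with offsets for length and GC content, an alternative chosen after seeing the data. Over all tested genes the lower counts were 2271 with DESeq2, 2174 with RLE factors and 2294 with the exact test, of 11104 each. They were 2110 of 14665 without a filter and 2131 of 11032 with the offsets. With a library left out, 3 to 5 were higher and 1 to 2 lower. Counts over all tested genes moved as well, from 2087 higher and 2109 lower of 11104 in the main fit. With a library left out they were 1571 to 2261 higher and 1622 to 2313 lower, of 11038 to 11604 tested. Without scaling factors they were 3704 and 1272 of 11104. Counts over all genes at an adjusted p under 0.01 and at the study's thresholds are not given here. For the other components, 13 higher and 9 lower became 26 and 3 without scaling factors, 7 and 4 at 0.01, and 3 and 1 at the study's thresholds, with 9 to 13 higher and 4 to 11 lower with a library left out. For the target genes the study's thresholds gave 2 higher and 5 lower. Log2 fold changes turned positive without scaling factors for Dvl2 (0.10), Csnk1a1 (0.0803), Gsk3b (0.0097), Wls (0.0921), Wnt5a (0.12), Ctnnb1 (0.14), Gsk3a (0.0932), Znrf3 (0.0719) and Tcf7l1 (0.13), while the median of all genes was then 0.22. Dvl1 was -0.0629 with the offsets and Wnt5a 0.0088 with thinned counts. With a library left out, values of both signs were found for Dvl2 (-0.45 to 0.29), Fzd4 (-0.25 to 0.54), Wls (-0.22 to 0.0061), Wnt5a (-0.30 to 0.12), Lef1 (-0.0605 to 1.19), Fzd6 (-9e-04 to 1.08), Porcn (-0.21 to 0.96) and Tcf7l1 (-0.36 to 0.12). None of the 23 values with a turned sign passed the threshold. The lncRNA count of 0 stayed at 0. The cause of these changes was not tested.

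Deviations over genes of same-numbered H/R and control libraries had correlations of 0.0399, -0.0039 and 0.0158, against -0.0302 to 0.0132 for the other combinations. The main fit treated the libraries as unpaired. These correlations cannot tell whether libraries shared a culture day or batch, which the labels do not give. With a replicate block 5 pathway genes were higher and 1 lower, where 2039 and 1998 of all 11104 tested genes were. Fzd7 then lost its call (adjusted p = 0.0648). H/R libraries held more reads than control libraries, and depth and treatment cannot be told apart by design. Thinning, which evens out only the number of reads, changed 1 of the 7 calls, that of Wnt9a. Genes under about 1 CPM were beyond the depth of these libraries.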

Other observations

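Among the TCF/LEF reads, Tcf7l2 took 70.8% to 75.3% of the reads of the 4 genes in H/R cells and 73.7% to 79.7% in control cells, and Tcf7l1 took 19.3% to 26.2% in H/R cells and 12.9% to 20.9% in control cells. Both overlapped between the groups (exact permutation test, two-sided, p = 0.2 for Tcf7l2 and 0.3 for Tcf7l1). Gsk3b gave 5 of the 11 circRNAs found at pathway genes, each with at most 5 reads in either group. All 40 genes together summed to 2872 to 2926 CPM in H/R cells and 2954 to 2974 CPM in control cells, of which Gsk3b was the largest single part in every library.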
